A study of Drosophila melanogaster with 12 samples.

Results

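G3 and A7 are clonal lines of Drosophila S2 cells, each grown from a single sorted cell after CRISPR/Cas-9 editing of upSET (CG9007) at the same guide target. The comparison holds 4 of the 8 nascent-RNA libraries of the study, 2 of G3 and 2 of A7, and asks how far transcription differs between clones whose lesions lie at 1 site. The members are the genes with a level of at least 1 CPM (the count scaled to the sense total of the library, which for the values below was TMM-adjusted) in at least 2 of the 8 libraries, which were 9612 of the 15998 genes in the files. All lines derive from S2-DRSC, a male and highly polyploid line of late embryonic origin, and the unedited S2 libraries stand as the parental control. G3 carries a homozygous deletion of 67 bp that takes the end of the 5′ UTR, the start codon and 10 bp of coding sequence after it. A7 carries 2 different deletions of 7 bp close to the start codon, each of which shifts the reading frame after 2 to 3 amino acids. The remaining clone, B2, was edited at another guide target of upSET and has a 1 bp deletion that shifts the frame after 367 amino acids. Each genotype is 1 clone, so a difference between G3 and A7 belongs to these clones, and the part of the lesion and that of the clone cannot be told apart.

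The target is shown because it is what both lesions share. It is the guide sequence given by the study, 20 bases followed by the 3 bases of the PAM in capitals, and it lies just past the start codon of upSET, which extends from 13995223 to 14013251 on chromosome arm 3L in the dm3 build. The study lists the target on the minus strand, so the bases shown are those of the strand opposite to the coding one.
upSET guide target 1: aaccgagtcgtgactggacaTGG

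UpSET is the fly relative of yeast SET3, a protein with a SET domain and a PHD finger that acts through histone deacetylases and helps keep active chromatin marks within bounds. In males, the MSL complex raises transcription of the single X chromosome and carries a noncoding RNA, roX1 or roX2, as part of its structure. S2 cells resemble hemocytes, the blood cells of the fly, which engulf debris, secrete matrix and make melanin. The RNA sequenced here is nascent RNA that stays with chromatin through urea washes, so the counts report transcription rather than the pool of finished mRNA, and introns can contribute to them.

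Sense counts per library totalled 10425243 and 5427807 in G3 and 10902304 and 4792036 in A7. The first library of each line belongs to one replicate series and the second to another, and the first principal component of all 8 libraries, with 44.1% of the variance, separated these series. Pearson's r of log2 CPM across genes was 0.970 between the G3 libraries and 0.973 between the A7 libraries. Between G3 and A7 of the same series it was 0.976 and 0.969, so G3 was as close to A7 of its own series as to its own second library. For this reason the replicate series entered the fit as a block. The fit held all 8 libraries, those of S2 and B2 included, and the lines shared an estimate of the spread. Nothing in the labels says that the libraries of a line came from separate cultures, so the p-values measure the spread between these libraries.

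G3 and A7 differed at 287 genes, which is 2.99% of the tested genes, by edgeR's quasi-likelihood test at an adjusted p under 0.05. Transcription was higher in G3 at 126 of them (1.31% of the tested genes) and lower at 161 (1.67%). Overlapping annotations count some loci more than once: the called genes made up 259 loci, 114 higher and 145 lower. The direction was the same in both replicate series for 286 of the 287, and the exception was CG13501. The calls came from a fit to these same series, so this agreement is no separate evidence for them. Its share over all tested genes was not counted. The libraries of the lines did not overlap at 268 of the 287, whereas they did not overlap at 35.4% of all tested genes. With library size in place of TMM scaling it was called higher at 93 and lower at 203. Without the replicate block, edgeR called 20 genes, 1 higher and 19 lower. Without G3 replicate 1, G3 replicate 2, A7 replicate 1 or A7 replicate 2 it called 136, 150, 172 and 152, of which 96, 129, 124 and 121 were among the 287.

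The genes on either side of the difference were not alike in level or size of change. Those lower in G3 changed by a median of -1.54 on the log2 scale, and 64 of the 161 were at least 4-fold apart (2 or more on the log2 scale). Those higher in G3 changed by a median of 0.74, and 16 of 126 were that far apart. The lower set had a median of 14.7 CPM in S2, close to the 15.8 CPM of all tested genes. The higher set had a median of 126 CPM in S2 and a median genomic extent of 12300 bp, against 2790 bp over all tested genes. CPM is not divided by gene length, and smaller changes can pass the test at higher counts.

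**Figure D1:**
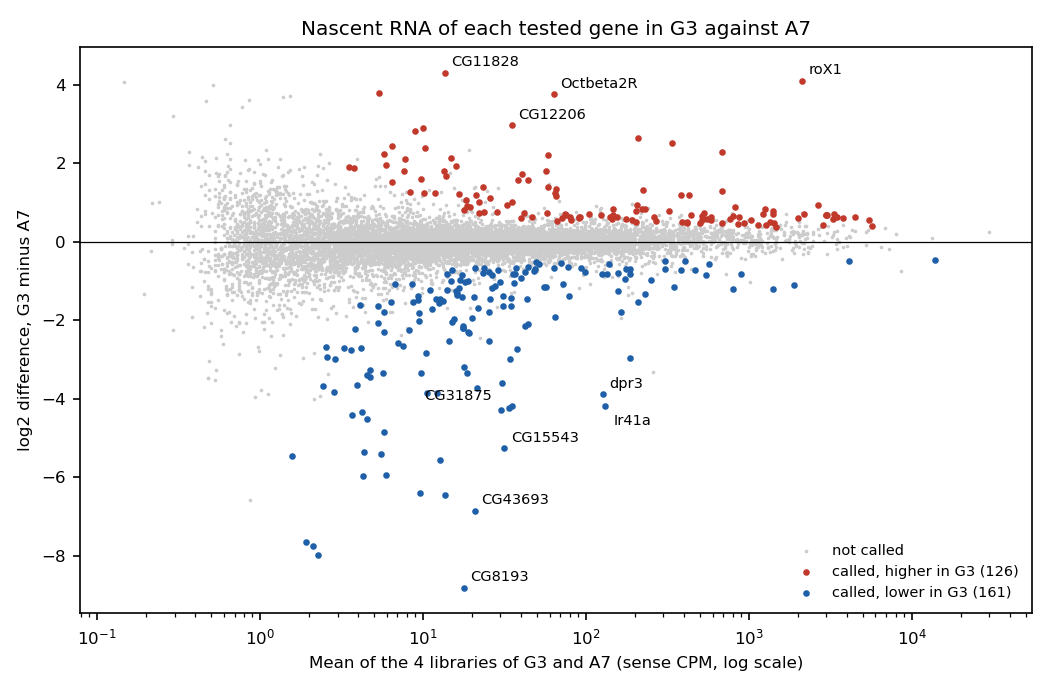
Each point is a tested gene, with the mean CPM of the 4 libraries of G3 and A7 on a log scale across and the fitted log2 difference, G3 minus A7, upwards. The 126 genes called higher in G3 are red and the 161 called lower are blue, and the blue points reach -8.82 whereas the red points reach 4.30.

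The edited gene itself was transcribed in both clones. upSET had 464 and 461 CPM in the G3 libraries, 761 and 606 in A7, 544 and 567 in S2, and 665 and 680 in B2. Both G3 values lay below all others and both A7 values above those of S2. The log2 difference between G3 and A7 was -0.56 (SE 0.12, edgeR adjusted p = 0.0406). Neither line differed from S2 by the test, with -0.27 in G3 (edgeR adjusted p = 0.234) and 0.30 in A7 (edgeR adjusted p = 0.217). Because the deletions remove few of the bases counted, these levels do not check the genotype. The call was lost without the replicate block (edgeR adjusted p = 0.297) and without G3 replicate 1, G3 replicate 2 or A7 replicate 1, with adjusted p-values of 0.151, 0.113 and 0.160. The 25 tested genes within 100 kb of upSET, with it among them, had a median of -0.39, and upSET was the 1 that was called. Of the other 10 members of the list of upSET and histone deacetylase complexes, edgeR called 0, with 1 at an unadjusted p under 0.05. That was Sin3A, the scaffold of a deacetylase complex, with 1418 and 1479 CPM in G3 and 1124 and 1076 in A7 (log2 difference 0.40, edgeR adjusted p = 0.0796), and DESeq2 called it.

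Of the 12 genes furthest above A7 in G3, roX1 had the highest level. It had 3864 and 4172 CPM in the G3 libraries and 316 and 146 in the A7 libraries. S2 had 15.2 and 13.6 CPM and B2 15.1 and 49.2. The lines did not overlap, and both stood above all S2 and B2 libraries. roX1 was 4.10 higher in G3 on the log2 scale (SE 0.50, edgeR adjusted p = 0.00479), and it was called in 9 of the 10 alternative analyses, the exception being the fit without the replicate block (edgeR adjusted p = 0.0632). Against S2 the log2 difference was 8.11 in G3 and 4.01 in A7. roX2, the other RNA of the complex, had 88.8 and 112 CPM in G3 and 98.4 and 204.7 in A7, which overlap, and was not called (log2 difference -0.50, edgeR adjusted p = 0.189). Of the 7 protein-coding genes on the list of the MSL complex and its recruiters, edgeR and DESeq2 called 0, and edgeR gave mle and JIL-1 an unadjusted p under 0.05. mle, the helicase that remodels roX RNA, had 107 and 119 CPM in G3 and 98.5 and 88.4 in A7.

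The genes on either side of roX1 also differed between the clones, but in these it was A7 that left the level of the parental line. ec, a ubiquitin-specific protease gene on the side of lower coordinates, had 1091 and 1138 CPM in G3, 376 and 121 in A7, and 1665 and 975 in S2. yin, a peptide transporter gene on the other side, had 473 and 671 CPM in G3, 152 and 52.4 in A7, and 648 and 502 in S2. CG2901, which lies within the extent of ec and may share reads with it, and CG2930, beyond yin, showed the same order. The log2 differences between G3 and A7 were 2.27, 2.20, 2.50 and 2.63 for ec, CG2901, yin and CG2930 (edgeR adjusted p = 0.0274, 0.0274, 0.0260 and 0.0365). Against S2 these genes differed by -0.22 to 0.01 in G3 and by -2.86 to -2.39 in A7. So roX1 was above S2 in A7 while its called neighbours were below it. Within 100 kb on either side of roX1, 19 genes were tested, these 5 were called, and the median difference over the 19 was 0.02. A7 replicate 2 was the lowest library for all of the 4 neighbours, and the calls of ec, CG2901 and CG2930 were lost without it (edgeR adjusted p = 0.0737, 0.0755 and 0.0907). All 4 calls were also lost without G3 replicate 2, at adjusted p-values of 0.0806 to 0.114, with the 4 libraries of G3 and A7 alone (0.0818 to 0.119) and without the replicate block (0.228 to 0.361).

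**Figure D2:**
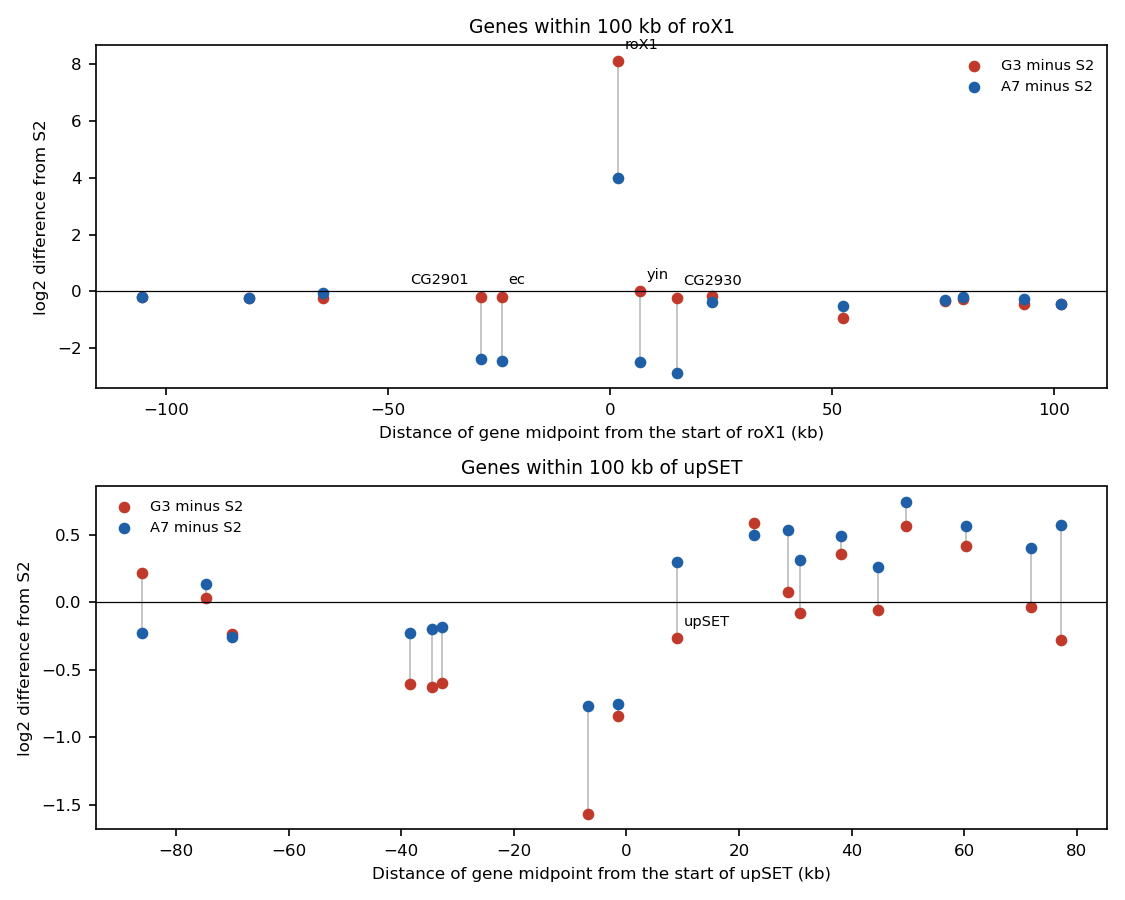
The fitted log2 difference from S2 is plotted for G3 in red and A7 in blue against the distance of each gene's midpoint from the start of roX1 (top) or upSET (bottom), in kb, for tested genes with a mean of 5 CPM or more over the S2, G3 and A7 libraries. roX1 lies above S2 in both lines while ec, CG2901, yin and CG2930 lie near S2 in G3 and more than 2 log2 units below it in A7, and right of upSET the A7 points lie above 0.

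The other genes that were furthest above A7 in G3 were near silent or low in A7, S2 and mostly in B2. CG11828 had 22.3 and 30.1 CPM in G3 and 1.23 and 1.37 in A7 (log2 difference 4.30, SE 0.31, edgeR adjusted p = 2.25e-04). It was called in all 10 alternatives, including the fit without the replicate block (edgeR adjusted p = 0.00552). CG11828 overlaps CG14521, over which antisense reads were also higher in G3, as given below. Octbeta2R, which encodes an octopamine receptor, had 169 and 68.2 CPM in G3, 11.6 and 5.69 in A7, and 12.2 and 3.00 in S2. Its log2 difference was 3.76 (SE 0.25, edgeR adjusted p = 1.23e-04). PH4alphaSG2, a prolyl 4-hydroxylase subunit of the kind that modifies collagen, had 10.8 and 9.33 CPM in G3 and 1.04 and 0.392 in A7 (log2 difference 3.78, SE 0.51, edgeR adjusted p = 0.00731). In all 3 of these genes the lowest G3 library was well above the highest library of any other line.

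CG12206, which lies on X outside the roX1 run, had 47.2 and 79.5 CPM in G3 and 8.12 and 6.28 in A7 (log2 difference 2.98, edgeR adjusted p = 0.00144). otk, which encodes a receptor related to tyrosine kinases, had 24.0 and 10.9 CPM in G3 and 1.89 and 3.14 in A7 (log2 difference 2.89). CG33275, now named Pura, had 26.8 and 22.0 CPM in G3 and 7.37 and 3.53 in A7 (log2 difference 2.13). These levels were also above all S2 and B2 libraries. The remaining genes of this group were CG2010, mgn00284, CG13737, CG14223 and CG3679, with log2 differences from 1.95 to 2.83. For mgn00284 and CG14223 the B2 libraries, at 9.08 and 13.1 CPM and at 8.73 and 9.85 CPM, lay between G3 and A7. CG13737 rests on replicate 1, with 18.7 CPM in G3 against 3.78 in A7, since the second libraries had 0.389 and 0.196 CPM.

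Some of these calls depended on 1 library. Without G3 replicate 1, otk, CG2010, mgn00284, CG13737, CG14223 and CG3679 were no longer called, with edgeR adjusted p-values of 0.116, 0.100, 0.0966, 0.746, 0.0966 and 0.106. Without A7 replicate 1, the calls of PH4alphaSG2, otk, mgn00284, CG13737 and CG3679 were lost, with adjusted p-values of 0.0680, 0.0676, 0.0918, 0.818 and 0.216. Without G3 replicate 2 or A7 replicate 2, CG3679 was not called either (0.261 and 0.153). The calls of roX1, CG11828, Octbeta2R, CG12206 and CG33275 held when any 1 of the 4 libraries was left out. Without the replicate block, edgeR called CG11828 of these 12 genes, and the adjusted p-values of the other 11 ran from 0.0632 to 0.967.

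The genes furthest below A7 in G3 included loci that gave almost no reads in G3. CG8193, now named PPO2, encodes a prophenoloxidase, the kind of enzyme with which crystal cells among the hemocytes make melanin. It had 0.0984 and 0 CPM in G3, which is 1 read, and 43.1 and 28.4 CPM in A7, with 6.15 and 5.47 in S2 and 10.4 and 10.3 in B2. Scaled to library size, A7 had 587 times as many reads as G3, with a 95% interval of 105 to 23200 for counting error. The fitted log2 difference was -8.82 (SE 0.41, edgeR adjusted p = 1.38e-05). Its neighbours on 2R, Ance-4 and CG13743, moved with it. Ance-4, related to angiotensin-converting enzyme, had 0.197 and 0 CPM in G3 and 9.92 and 7.06 in A7, and CG13743 had 0.590 and 0.389 in G3 and 24.0 and 26.1 in A7. For CG8193 and CG13743 the clones left S2 in opposite directions, with A7 above it by 2.62 and 2.13 on the log2 scale and G3 at -6.19 and -3.43 against it, all 4 past the test.

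CG43693 had 0.590 and 0 CPM in G3 and 56.6 and 26.3 in A7 (log2 difference -6.85, edgeR adjusted p = 6.82e-05). CG15543 had 1.97 and 1.36 CPM in G3 and 86.7 and 36.9 in A7 (log2 difference -5.27, edgeR adjusted p = 1.38e-05). CG17374, now named FASN3, a fatty acid synthase gene on the heterochromatic part of 3L, had 0.295 and 0 CPM in G3 and 11.5 and 12.2 in A7. E23, an ABC transporter gene that responds to ecdysone, had 3.44 and 2.53 CPM in G3 and 70.5 and 43.5 in A7 (log2 difference -4.28, edgeR adjusted p = 1.38e-05). In these 4 genes S2 and B2 were at 8.001 CPM or less in each library, so A7 stood apart from the other lines. CG10232, CG10859 and Syt12, a member of the synaptotagmin family, followed the same pattern at lower counts, with at most 12.9, 7.18 and 10.2 CPM in an A7 library.

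At Ir41a, CG31875 and SoYb it was G3 that stood apart. Ir41a, an ionotropic receptor gene, had 20.6 and 5.44 CPM in G3, 287 and 211 in A7, 281 and 319 in S2, and 261 and 292 in B2 (log2 difference -4.19, SE 0.39, edgeR adjusted p = 0.00129). CG31875 and SoYb overlap on 2L, and reads of the one may be counted in the other. SoYb, a Tudor-domain gene of the piRNA pathway, had 2.85 and 3.89 CPM in G3, 52.1 and 77.1 in A7, 37.1 and 57.7 in S2, and 15.8 and 20.3 in B2 (log2 difference -4.24, SE 0.16, edgeR adjusted p = 5.54e-06). CG5568 and its neighbour CG18586 were low in G3 and also in B2: CG5568 had 0.0984 and 0.389 CPM in G3 and 0 in both B2 libraries, against 15.7 and 22.4 in A7 and 11.4 and 13.2 in S2. dpr3, which encodes an immunoglobulin-domain surface protein, differed between replicate series in every line, with 32.6 and 3.30 CPM in G3, 435 and 37.5 in A7, and 162 and 3.53 in S2 (log2 difference -3.89, edgeR adjusted p = 0.00367). Within each series A7 was highest. Leaving out G3 replicate 1 ended the calls of CG17374, CG10232 and dpr3 (edgeR adjusted p = 0.0663, 0.0665 and 0.0596), and leaving out A7 replicate 1 those of CG10232 and Syt12 (0.102 and 0.0700). CG10859 was not called when any 1 of the 4 libraries was left out (edgeR adjusted p = 0.123 to 0.254). Without the replicate block the calls of CG17374, CG10232, CG10859, Syt12 and dpr3 were lost (edgeR adjusted p = 0.248, 0.388, 0.461, 0.270 and 0.872).

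**Figure D3:**
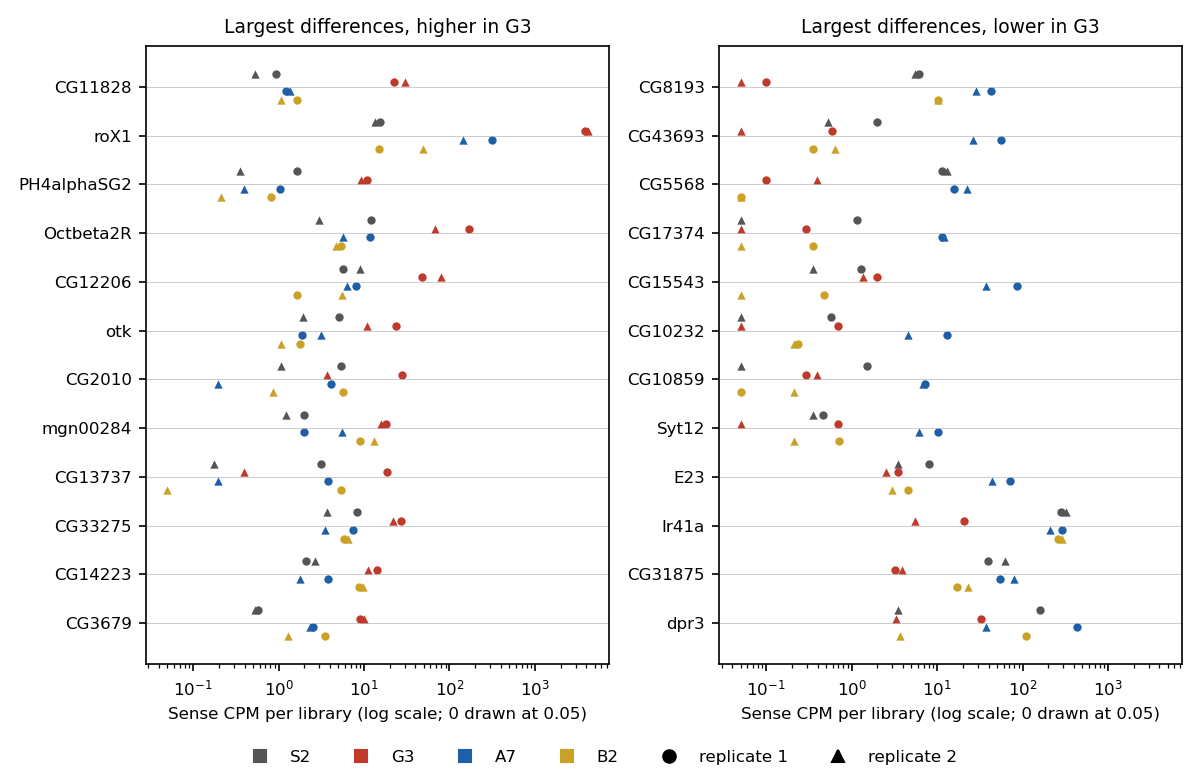
Sense CPM on a log scale in each of the 8 libraries for the 12 genes with the largest positive and the 12 with the largest negative difference, with colour for the line and circles and triangles for replicates 1 and 2. On the left the G3 points stand to the right of the A7 points of the same replicate for every gene, and on the right the A7 points do, with CG8193 at 1 read in G3.

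Called genes with 3 counts or fewer in each library of one line and at least 5 CPM in both libraries of the other numbered 7, and all 7 were low in G3. They were CG8193, Ance-4, CG5568, CG17374, CG10859, CG6357 and net. CG8193 and Ance-4 are neighbours, and the share of all tested genes that meet these limits was not counted. net, which encodes a bHLH factor that acts in wing vein patterning, had 0.295 and 0.389 CPM in G3 and 37.8 and 16.3 in A7. It lies on 2L beside galectin, a sugar-binding lectin gene with 6.79 and 8.74 CPM in G3 and 47.3 and 39.2 in A7. Taking all 10 alternatives together, 19 of the 287 genes were called in each. These were CG11828, the 1 gene higher in G3, and 18 lower ones, among them CG8193, CG13743, CG43693, CG5568, CG15543, E23, Ir41a, CG31875, SoYb, galectin, CG7791, Caps and sqz. sqz, a zinc-finger factor gene, had 1.67 and 1.55 CPM in G3, 28.1 and 17.5 in A7, and 36.2 and 23.8 in S2. Caps on chromosome 4, whose product is an activator of vesicle secretion, had 4.33 and 5.05 CPM in G3, 56.2 and 56.9 in A7, and 58.2 and 72.2 in S2.

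The lists of pathway and cell type genes were mostly alike in the clones, and each list is read against the 1.31% of tested genes called higher and the 1.67% called lower. Without the replicate block every list member called here lost its call, upSET and roX1 included, at edgeR adjusted p-values from 0.0632 (rhi and roX1) to 0.585 (jing and aos). The piRNA pathway, in which small RNAs silence transposons, had 21 tested members on its list, of which edgeR called 2 higher in G3 and 0 lower. DESeq2 also called AGO3, which was lower in G3. SoYb, described above and lower in G3, is a gene of this pathway that the list does not hold. rhi, an HP1 relative that marks piRNA clusters, had 20.7 and 30.5 CPM in G3, 7.18 and 5.49 in A7, 5.33 and 4.06 in S2, and 15.5 and 18.8 in B2 (log2 difference 1.92, SE 0.25, edgeR adjusted p = 0.00634). It was called when any 1 of the 4 libraries was left out. tej, a Tudor-domain gene, had 17.8 and 15.5 CPM in G3 and 6.80 and 7.65 in A7 (log2 difference 1.23, edgeR adjusted p = 0.0186). Without G3 replicate 1, A7 replicate 1 or A7 replicate 2 its call was lost (edgeR adjusted p = 0.140, 0.107 and 0.0791). AGO3, which encodes a PIWI protein, was lower in G3 and did not pass edgeR's test, with 752 and 586 CPM in G3, 1546 and 1182 in A7, and 148 and 61.9 in S2 (log2 difference -1.03, edgeR adjusted p = 0.0521). del, a partner of rhi, was at 71.7 and 89.8 CPM in G3 and 65.0 and 78.3 in A7, above 11.4 and 9.53 in S2. The median over the list was 0.17, against -0.01 over all tested genes.

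Hemocyte genes differed in both directions. Of 16 tested members, Pxn was called higher in G3 than in A7 and ush, Pvf2 and TepII lower, and the list median was -0.10. Pxn, the gene of the matrix enzyme peroxidasin, had 406 and 677 CPM in G3, 228 and 237 in A7, and 808 and 791 in S2 (log2 difference 1.18, SE 0.18, edgeR adjusted p = 0.0112). Both clones lay below S2, and A7 further. Pvf2, a PDGF and VEGF-like ligand, had 324 and 454 CPM in G3, 575 and 822 in A7, and 351 and 368 in S2 (log2 difference -0.84, edgeR adjusted p = 0.0146). ush, the cofactor of the GATA factor srp, had 12400 and 11000 CPM in G3 and 17830 and 14760 in A7 (log2 difference -0.47, edgeR adjusted p = 0.0309). TepII, a thioester protein gene of the opsonin kind, had 24.4 and 22.5 CPM in G3 and 60.8 and 66.5 in A7. srp itself was at 983 and 927 CPM in G3 and at 1090 and 994 in A7 and was not called, and Pvr, the receptor of Pvf2, was not called either (log2 difference 0.04, edgeR adjusted p = 0.906). The calls of Pxn and Pvf2 were lost without A7 replicate 2 (edgeR adjusted p = 0.0824 and 0.0858), as was that of TepII (0.158). Pvf2 and TepII also lost theirs without G3 replicate 1 (0.0692 and 0.193), TepII without G3 replicate 2 (0.0685), and ush under each of the 4 (0.0501 to 0.0925).

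Hemocyte markers summed to 19240 and 17790 CPM in G3, 25040 and 20560 in A7, and 20280 and 18090 in S2, and gcm, NimC1, Sr-CII and He were under the filter. Most of each sum was ush. Without it the other 15 summed to 6840 and 6790 CPM in G3, 7209 and 5795 in A7, and 7703 and 6090 in S2, and G3 and A7 overlapped. Of the 7 tested muscle markers, 7 epithelial, 2 fat body and 3 germline markers, 0 were called by edgeR, at a lowest adjusted p of 0.172, 0.0710, 0.0779 and 0.0591. At an unadjusted p under 0.05 these were 2, 2, 1 and 1, and DESeq2 called the epithelial Fas3 alone. Of 13 neural markers, 1 was called, Ten-a, which was higher in G3 than in A7. This teneurin gene had 4412 and 3818 CPM in G3, 2795 and 2311 in A7, and 3401 and 3063 in S2 (log2 difference 0.69, edgeR adjusted p = 0.00479). In bulk libraries fewer cells of a kind and less RNA per cell cannot be told apart.

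The signaling lists held 2 calls each among 19 tested members. fz and fz2, the receptors of Wnt ligands, were both lower in G3 and were the calls of the Notch, Wnt, Hedgehog and BMP list. fz2 had 113 and 82.8 CPM in G3, 183 and 165 in A7, and 66.2 and 71.6 in S2 (log2 difference -0.83, edgeR adjusted p = 0.0311). In the list of JAK/STAT, JNK and EGFR signaling the calls were aos and Stat92E. aos, which encodes a secreted inhibitor of the EGF receptor, had 66.8 and 65.3 CPM in G3, 388 and 141 in A7, and 321 and 96.2 in S2 (log2 difference -1.79, edgeR adjusted p = 0.0307). Stat92E, the transcription factor of JAK/STAT signaling, had 1085 and 1104 CPM in G3 and 811 and 771 in A7 (log2 difference 0.47, edgeR adjusted p = 0.0347). Toll, listed as Tl, had 412 and 303 CPM in G3 and 561 and 593 in A7 (log2 difference -0.71, edgeR adjusted p = 0.0310) and was the 1 edgeR call among 15 tested immune genes, of which DESeq2 also called dl (log2 difference -0.57, edgeR adjusted p = 0.0547). Eip74EF, an ETS factor gene induced by ecdysone, had 335 and 481 CPM in G3 and 205.2 and 268 in A7 (log2 difference 0.78, edgeR adjusted p = 0.0157) and was the 1 call of 14 in its list. In the matrix list of 17, wb, a laminin subunit gene, had 17.3 and 13.6 CPM in G3 and 49.2 and 44.9 in A7, and Glt, the gene of glutactin, had 41.2 and 48.0 against 66.0 and 134. These 8 calls were each lost under at least 2 of the leave-one-out fits, Stat92E under all 4 (edgeR adjusted p = 0.0580 to 0.149), fz2, Eip74EF, Tl and wb under 3, and fz, aos and Glt under 2, with adjusted p-values from 0.0507 to 0.192.

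The chromatin lists held few calls. Of the 18 genes of heterochromatin and H3K9 methylation edgeR called 0, their log2 differences ran from -0.26 to 0.48, and the lowest adjusted p was 0.0608. Of 17 trithorax genes it also called 0, with -0.27 to 0.41 and a lowest adjusted p of 0.117. At an unadjusted p under 0.05 there were 1 and 3, and DESeq2 called 0 in both lists. Of 18 Polycomb group genes 1 was called, jing, which was lower in G3 than in A7. It had 39.8 and 29.7 CPM in G3 and 58.3 and 50.4 in A7 (log2 difference -0.65, edgeR adjusted p = 0.0344). Its call was lost under each of the 4 leave-one-out fits (0.0830 to 0.170). Of 17 cell cycle and cell death genes and of 14 heat shock genes edgeR called 0, with 3 in each list at an unadjusted p under 0.05. DESeq2 called W, the cell death gene hid, and 0 heat shock genes.

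**Figure D4:**
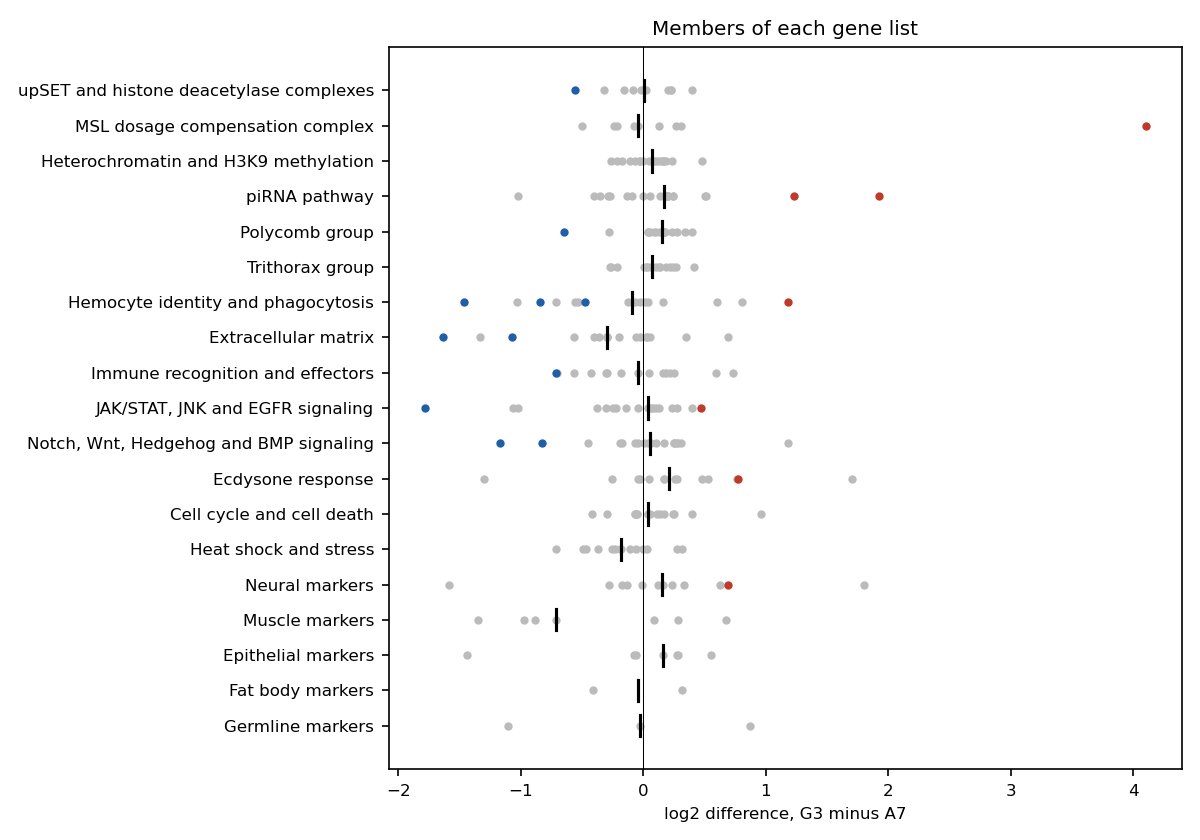
Each point is a tested member of a gene list, placed by its fitted log2 difference, G3 minus A7, with red and blue for members called higher and lower in G3, grey for the rest and a black bar at the list median. Most members lie within 0.5 of 0, and roX1 at 4.10 is the point furthest from it.

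Differences between the clones also ran along chromosomes. The median log2 difference was -0.10 over the 1690 tested genes of 2L, -0.02 on 2R, 0.07 on 3L, 0.00 on 3R and -0.02 on X. On chromosome 4 it was -0.22 over 85 genes, of which 11 were above 0, with -0.21 and -0.23 in the 2 replicate series. Against S2 the median of chromosome 4 was 0.18 in G3 and 0.40 in A7. Of its genes 5 were called, and all 5 (zfh2, unc-13, toy, Actbeta and Caps) were lower in G3. Caps was called under all 10 alternatives. unc-13, toy and Actbeta lost their calls under each of the 4 leave-one-out fits, zfh2 under 3 of them, and all 4 of these genes without the replicate block (edgeR adjusted p = 0.816, 0.644, 0.527 and 0.515). The group taken as heterochromatin held chromosome 4, the arms named Het and the 1 Mb of each large arm next to its centromere. These are not the boundaries used by the paper. Its parts differed, with chromosome 4 at -0.22 and the 6 genes of 2LHet at -0.37. The 17, 20, 18 and 9 genes of 2RHet, 3LHet, 3RHet and XHet were at 0.15, 0.30, 0.22 and 0.45. Over all 326 genes of the group, the median was -0.09, with 10 called higher and 12 lower. These counts and those of chromosome 4 stand beside 1.31% called higher and 1.67% called lower over all tested genes. The median was -0.02 over X euchromatin and -0.01 over autosomal euchromatin. Library size in place of TMM moved all of these down by about the shift of the median of all genes, from -0.01 to -0.08.

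Of 119 stretches of 1 Mb with 20 or more tested genes, 74 had a median within 0.1 of 0. A median of 0.3 or more from 0 that was also 0.15 or more from it in each series was found in 4, and all 4 were lower in G3. The lowest was 3L from 14 to 15 Mb, which begins within upSET. Its 52 genes had a median of -0.35, with -0.44 and -0.17 in the series, and 7 of them, upSET included, were called lower and 0 higher. Over all tested genes 1.67% were called lower and 1.31% higher. Against S2 this stretch was at 0.13 in G3 and 0.50 in A7. The called genes in it include nuf, a gene needed for furrow formation in the embryo, with 83.5 and 135 CPM in G3 and 267 and 356 in A7 (log2 difference -1.54, edgeR adjusted p = 2.58e-04, and 0.248 without the replicate block), and fz, with 172 and 268 CPM in G3 and 492 and 454 in A7. The next was 2R from 3 to 4 Mb, at -0.32 over 121 genes with 12 called lower and 0 higher. There G3 was at -0.38 against S2 and A7 at -0.08. Its called genes include sax, a BMP receptor gene, at 39.3 and 42.6 CPM in G3 and 58.8 and 58.4 in A7, and CanB2, which encodes a regulatory subunit of calcineurin, at 19.2 and 17.9 against 29.8 and 34.7. Both calls were lost under each of the 4 leave-one-out fits, with the 4 libraries alone and without the replicate block (edgeR adjusted p = 0.289 and 0.228 without it), and DESeq2 did not call sax. The adjoining stretches of 2R from 2 to 3 Mb and from 4 to 5 Mb, the latter with CG8193, were at -0.25 and -0.22, with 4 and 7 called lower and 0 higher. The other 2 were 2L from 3 to 4 Mb (-0.31) and from 22 to 23 Mb (-0.31). No stretch had a median above 0.26.

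**Figure D5:**
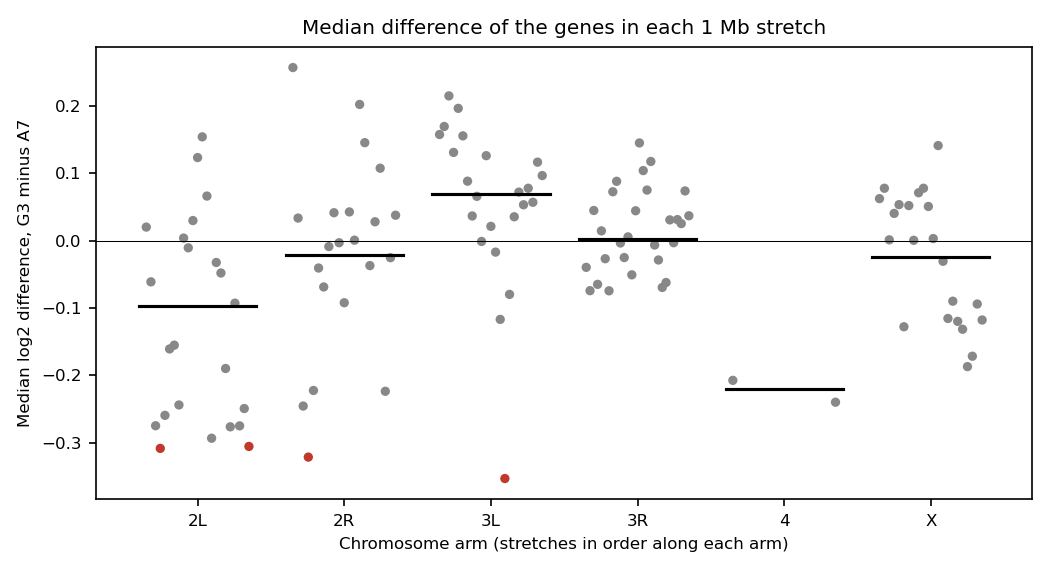
Each point is the median log2 difference, G3 minus A7, of the tested genes in a stretch of 1 Mb, in order along each arm, and the black bars are the medians of the arms. The 4 red points, 2 on 2L and 1 each on 2R and 3L, are the stretches at -0.30 or lower in the fit, and both stretches of chromosome 4 lie below 0.

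The antisense strand was counted separately, and it held 8.59% to 11% of the reads of a library. Its CPM are scaled to the total of antisense reads and so stand on another scale than the sense CPM. Of 12610 genes tested on this strand, 177 were called between G3 and A7 (1.4%), 80 higher in G3 (0.634%) and 97 lower (0.769%). That fit gave no spread of its own to single genes, so its p-values are not printed and its calls serve as a description. At 20 of the 177 the sense count of the same gene was called too, where sense calls were 2.99% of the genes tested on the sense strand. Some of the 177 were not tested on that strand.

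Of the 24 genes named for the size of their sense difference, 22 were tested on the antisense strand and 2 were called, Ir41a and roX1. Over Ir41a there were 45.2 and 24.8 antisense CPM in G3, 859 and 441 in A7, and 393 and 656 in S2, so both strands were low in G3. Over roX1 there were 19.4 and 28.6 in G3, 5.40 and 1.88 in A7, and 22.0 and 8.04 in S2. Thus antisense reads over roX1 did not follow its sense rise above S2. The antisense order was that of the sense strand over ec, with 250 and 149 antisense CPM in G3 and 66.3 and 35.7 in A7. It was also the same over net (6.45 and 15.3 in G3 against 96.4 and 75.1 in A7), Caps (45.2 and 40.1 against 177 and 120) and nuf (26.6 and 36.2 against 94.9 and 67.6). Among the genes called on both strands, mgn00524 and mgn00285 went opposite ways, with sense log2 differences of 0.63 and 0.50 and antisense ones of -2.59 and -1.18. At CG8193, CG43693, CG15543 and E23 the antisense strand had at most 8.49 CPM in any G3 or A7 library. Some genes named above overlap another gene that was called antisense, and reads may be counted in both. CG11828 overlaps CG14521, with 776 and 885 antisense CPM in G3 and 37.0 and 37.6 in A7. PH4alphaSG2 overlaps PH4alphaMP (86.3 and 80.1 in G3 against 13.1 and 7.51). CG13737 lies within CG43749 (1308 and 26.7 in G3 against 329 and 33.8).

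Around upSET the level changed from one side of the gene to the other. Right of it, within 1 Mb, A7 was above S2 in both replicates at 32 of 35 genes with a mean of 5 CPM or more, G3 at 23 and B2 at 11. Left of it, within the same distance, the counts were 11, 7 and 11 of 35. Over all such genes of 3L, the share above S2 in both replicates was 26.3% in A7, 37.5% in G3 and 32.8% in B2. The median log2 difference from S2 on the right was 0.63 and 0.29 in the A7 libraries, 0.27 and 0.25 in the G3 libraries and -0.04 and -0.00 in B2. On the left it was 0.04 and -0.04 in A7 and -0.06 and -0.04 in G3. Nearer to upSET the G3 values were lower. Within 500 kb on the right, A7 was above S2 in both replicates at 12 of 13 genes and G3 at 7, with medians of 0.63 and 0.22 in A7 and 0.12 and 0.05 in G3. Within 100 kb on the right the counts were 8 and 5 of 9. Within 100 kb on the left, over 8 genes, the medians were -0.64 and -0.36 in G3 and -0.20 and -0.32 in A7. In all 3 windows on the right the medians of both A7 libraries were above those of G3 from the same series. The windows and the 5 CPM limit were chosen after the stretch had been seen.

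The levels of S2 and B2 were compared with those of the clones. At 111 of the 287 called genes both S2 and B2 were nearer to A7, here termed G3 apart. At 118 both were nearer to G3, termed A7 apart. This rule picks the nearer clone and does not show that the other clone alone had moved. S2 lay between the clones at 81 of the 126 genes higher in G3 and at 94 of the 161 lower ones. At the rest S2 lay outside both. At 39 genes S2 was nearer to A7 and B2 to G3, and at 19 the reverse. Genes higher in G3 were more often those where G3 stood apart (61 of 126, against 38 for A7), with CG11828, Octbeta2R and CG12206 as examples. Among genes lower in G3, A7 stood apart at 80 of 161, as with CG15543 and with E23, although at E23 G3 was also called below S2. G3 stood apart at 50, as with Ir41a and CG7791. These are counts of mean CPM on a log scale with no test of their difference, and both clones are compared with the same 2 S2 libraries. The genes counted were picked for a gap between the clones. The same shares over all tested genes were not counted, so the counts have no background to stand beside. By the test, 564 genes (5.87% of those tested) were called in G3 against S2 and 353 (3.67%) in A7 against S2.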

How the data were processed

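Nascent RNA from chromatin was sequenced in S2, G3, A7 and B2 cells, 2 libraries of each line. The authors trimmed the reads with Cutadapt and mapped them uniquely to the dm3 build with Bowtie (0.12.7 in the submitters' processing notes, which also name bedtools). They deposited the whole-number count of sense and of antisense reads per gene, and the counter is not given in the sources used here. The columns named r3 were taken as replicate 2.

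Genes with 1 CPM or more in 2 of the 8 libraries were tested on the counts as deposited with edgeR 4.0.16 (R 4.3.3), using TMM factors (0.949 to 1.065), the quasi-likelihood test with line and replicate series as terms, and Benjamini-Hochberg adjustment at 0.05. Deviations from the line mean of libraries with the same replicate correlated at 0.500 to 0.633 in all pairs of lines, so the series was kept as a block. SE is the log2 difference divided by the root of F. The steps were run on counts simulated from this same fit, with changes set only in well-counted genes. That run does not test calls at genes with few reads. A count of 3 corresponds to 0.283 to 0.642 CPM, and the interval of a ratio of reads covers counting error only.

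The genes named were upSET, the 12 with the largest difference in each direction among called genes with 5 CPM or more in the higher line and the same direction in both series (the most counted within 5 kb), called members of the lists, and others chosen after their values were seen. The members and lists were chosen with earlier results of these data known. Alternatives were DESeq2 1.42.0, no block, the 4 libraries alone, library size, filters of 5 CPM or 1 count, and leaving out each library.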

Additional observations from a re-analysis of the deposited data

Results flagged for a closer look

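At 4 genes each clone was called against S2 and the clones went opposite ways. The log2 difference between G3 and A7, which is the test of the difference itself, was -8.82 at CG8193, -5.56 at CG13743, -4.28 at E23 and -3.89 at dpr3. Against S2, G3 was at -6.19, -3.43, -0.98 and -1.90 and A7 at 2.62, 2.13, 3.30 and 2.00. Both clones share the S2 libraries. CG8193 and CG13743 lie close together on 2R. The call of dpr3 was lost without G3 replicate 1 and without the replicate block.

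On the antisense strand 6 stretches that overlap no called sense gene were at least 4-fold above S2 in one clone (2 on the log2 scale, with 1 added to each mean) and far from the other clone. CG2121 on 2R had 1358 and 2489 antisense CPM in G3, 6.17 and 0 in A7, and 6.17 and 2.01 in S2 (log2 difference 8.66). On 3L, slif had 1431 and 360 in G3, 13.1 and 15.0 in A7, and 32.6 and 32.2 in S2 (5.99), and Ssl1, CG11131, BoYb and CG12768 beside it showed the same order. In A7 the high stretches were pxb with CG5404 on 3R (1036 and 701 over pxb, against 34.7 and 13.4 in G3, -5.25) and Npc2g with Npc2h and CR43238 (443 and 214 over Npc2g, against 4.03 and 0, -6.95). The remaining 2 were sv on chromosome 4 (878 and 879 against 97.6 and 19.1, -3.99) and CG42588 on 3L (144 and 141 against 19.4 and 7.63, -3.44). A called sense gene lay within 5 kb of 2 of the 6. CG15543, at 689 bp from Npc2g, was also high in A7 (86.7 and 36.9 sense CPM, against 1.97 and 1.36 in G3), and Actbeta, at 4301 bp from sv, had a log2 difference of -3.40. The limits on level, size and distance used to list them were chosen after the data were seen.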

How the results depend on the processing

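The count of called genes depended on the replicate block and on the number of libraries. Where the analysis as designed called 287 genes (126 higher, 161 lower), edgeR called 20 (1 and 19) with no replicate block, 97 (18 and 79) with the 4 libraries of G3 and A7 alone, and 516 (234 and 282) with no filter beyond 1 count. Leaving out 1 library gave 136 to 172 (55 to 80 higher and 56 to 109 lower). Shared with the 287 were 20, 92, 287 and 96 to 129 genes. DESeq2 called 332, of which 255 were shared, library size alone 296 (251 shared), and the 5 CPM filter 289 (271 of 276 tested). The share of calls that were higher was 43.9%, and it was 31.4% with library size, 5% with no block, 18.6% with the 4 libraries, and 36.6% to 58.8% with a library left out. Of the 287, 19 were called under all 10 alternatives, 56 with any 1 library left out and 89 with none of these.

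The upSET difference was -0.56 with no replicate block and -0.56 with the 4 libraries alone, no longer past the test (edgeR adjusted p = 0.297 and 0.198), and -0.73 to -0.38 with 1 library left out. For the 55 other genes followed, 404 values under an alternative kept the call and 145 lost it, none reversed, and 12 of 55 were called with no replicate block.

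Library size alone shifted the median of all genes from -0.01 to -0.08, and with it the medians of 2L (-0.17), 2R (-0.0923), 3L (-3e-04), 3R (-0.0689), chromosome 4 (-0.29), X (-0.10), autosomal euchromatin (-0.0768), X euchromatin (-0.0918) and heterochromatin (-0.16). In the replicate series alone, 2R was at -0.0129 and -0.0134, 3R at -0.0016 in the second, and heterochromatin at -0.0748 and -0.0706. The cause of these changes was not tested. With 2 libraries a line and 4738785 to 10902304 sense counts each, genes near 1 CPM rest on few reads.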

Other observations

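Antisense transcription also fell to low levels in G3 at 4 stretches where A7, S2 and B2 were alike in order of magnitude. The highest level was over ap on 2R, a LIM-homeodomain gene that specifies the dorsal wing, with 247 and 135 antisense CPM in G3, 5636 and 4947 in A7, 6898 and 9466 in S2, and 8507 and 8248 in B2 (log2 difference between G3 and A7 -4.77). A gene beside it moved in the same direction. On 2L, CG15161 had 8.87 and 3.81 in G3 and 254 and 319 in A7 (-5.28), and CG33511 and CG33510 were at 3.23 or less in G3 and 133 or more in A7 (-5.58 and -7.03). CG13349 on 2R had 6.45 and 3.81 in G3 and 229 and 90.2 in A7 (-4.89). Called sense genes lay within 5 kb of 3 of these stretches, all lower in G3. They were CG7791 at 316 bp from the gene beside ap, CG33509 at 289 bp from CG33510 and MESR3 at 1166 bp from CG15161. The distance was taken from the edge of the whole stretch, and ap itself lay further from CG7791. These and the stretches above S2 hold 19 genes in 10 stretches with a mean of 100 antisense CPM or more in one clone and a log2 difference of 3 or more. Of the 177 antisense calls, 51 overlapped a called sense gene and 126 were neither that nor called on the sense strand. The share of all genes tested on the antisense strand that overlap a called sense gene was not counted.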
